A study of Homo sapiens with 18 samples.

Results

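The 10 genes described here encode a set of proteins grouped as readers of N6-methyladenosine (m6A) on RNA: YTHDF1, YTHDF2, YTHDF3, YTHDC1, YTHDC2, IGF2BP1, IGF2BP2, IGF2BP3, HNRNPA2B1 and HNRNPC. They were found by matching the Ensembl identifiers of the deposited expression table to gene symbols. All 10 were among the 15258 genes of the table, and all 10 were among the 14512 genes tested. Messenger RNA was measured by RNA-seq in MEL624 cells, an established human melanoma line, in 3 lines with 3 replicates each (A to C, biological replicates per the series design). The control line is wild type and carries a random sgRNA. KO1 and KO2 are independent clonal knockout lines of PCIF1, the enzyme that adds m6Am, a methylated adenosine next to the mRNA cap. With 1 control line and 1 clone behind each knockout group, the p-values given here reflect only how replicate libraries vary within lines, and an effect of PCIF1 loss cannot be told apart from a difference between clones.

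Internal m6A is written on nuclear RNA by the METTL3 and METTL14 complex, and readers bind it and set what happens to the transcript. The YTH domain holds the methylated base in an aromatic pocket. YTHDF1, YTHDF2 and YTHDF3 are cytoplasmic paralogs linked to translation and decay, YTHDC1 is nuclear and linked to splicing and export, and YTHDC2 is an RNA helicase. The IGF2BP proteins bind RNA through KH and RRM domains and stabilise their cargo. HNRNPA2B1 and HNRNPC are abundant nuclear proteins for which m6A changes access to RNA. PCIF1 acts on a different adenosine, and the comparison of the lines shows the mRNA level of the m6A readers in cells edited at PCIF1.

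Because PCIF1 acts only where transcription starts with adenosine, the bases around the annotated start are shown for the 6 readers that were called in a comparison below and have a start window in RefSeq (GRCh38.p14). Each window holds the 20 bases before the start and 10 bases from it, written 5′ to 3′ on the gene's strand, with the start base in capitals. The windows lie at chr20:63216122-63216151 on the minus strand for YTHDF1, chr1:28736920-28736949 on the plus strand for YTHDF2 and chr5:113513674-113513703 on the plus strand for YTHDC2. Those of IGF2BP2, IGF2BP3 and HNRNPA2B1 lie at chr3:185825033-185825062, chr7:23470482-23470511 and chr7:26200737-26200766, all on the minus strand.
YTHDF1: ccgccgccgtcgccgctgctGtcgccgccg
YTHDF2: gggcattgagctcttgggctAgagcgtcgc
YTHDC2: ggtgacgtcattacgcccgcGctcctcgcc
IGF2BP2: ggggagggggggcggaggagGaggagagac
IGF2BP3: aggcggcgcctgcctcacgtAgtgtgatat
HNRNPA2B1: gcggcagcggctctagcggcAgtagcagca
The annotated start base was A in YTHDF2, IGF2BP3 and HNRNPA2B1 and G in YTHDF1, YTHDC2 and IGF2BP2. Of the 8 readers with a window, 5 started with A, YTHDC1 and HNRNPC included, and 3 with G. Over all 35116 RefSeq windows, 44.4% started with A and 33.6% with G. YTHDF3 and IGF2BP1 were not matched. The annotated base is not a measurement of where transcription starts in these cells.

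In the 9 libraries, between 7848089 and 11393206 reads were recovered on genes, 84602764 in all. The targeted gene PCIF1 had levels of 55.2, 62.0 and 55.6 TPM in control, 24.7, 22.0 and 25.3 TPM in KO1 and 58.0, 64.7 and 58.1 TPM in KO2 (replicates A to C). TPM is a length-normalised abundance of transcripts. PCIF1 mRNA was lower in KO1 (log2 fold change -1.26, limma adjusted p = 1.65e-06) and was not called in KO2 (0.07, limma adjusted p = 0.542), so its level does not check the KO2 label. Of 10 melanocyte and neural crest markers, MITF and ERBB3 had a value, and their summed level was 39.6 to 42.1 TPM in control, 24.9 to 30.0 in KO1 and 48.6 to 52.7 in KO2. The sum was mostly MITF (37.1 ± 1.14, 26.3 ± 2.49 and 50 ± 2.26 TPM in the same order), whereas every ERBB3 value in both clones was below those of control (3.56 ± 0.231, 0.81 ± 0.165 and 0.959 ± 0.164 TPM). SOX10, PMEL, MLANA, TYR, DCT, TYRP1, S100B and S100A1 had no value in the table used here, so the label rests on few of its defining markers. The epithelial keratins KRT8 and KRT18 (2 of 4 markers; EPCAM and CDH1 had no value) summed to 1061 to 1082 TPM in control, 948 to 988 in KO1 and 851 to 928 in KO2. The fibroblast marker LUM (1 of 3) was at 0.0322 to 0.135 TPM in control, 1.89 to 2.67 in KO1 and 0.787 to 1.43 in KO2, from 0 or 1 reads per library in control, where the value is set by the prior count, and 5 to 23 in the clones. No endothelial (0 of 3) or leukocyte (0 of 3) marker had a value. The part of these markers in the reader results was not tested.

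All 10 readers were expressed in every library, with 9 of them above 20 TPM throughout. In control, HNRNPA2B1 was the most abundant at 1055 ± 36.8 TPM (SD, n = 3), followed by HNRNPC at 311 ± 1.62 TPM. YTHDF2 at 81.3 ± 2.74 TPM and IGF2BP2 at 76.0 ± 3.58 TPM came next, and their library ranges overlapped. YTHDF1 and IGF2BP1 formed an overlapping pair, at 57.4 ± 1.64 and 55.9 ± 1.20 TPM, and YTHDF3 and IGF2BP3 another, at 48.0 ± 2.83 and 46.7 ± 5.02 TPM. YTHDC1 at 32.9 ± 2.92 TPM and YTHDC2 at 14.1 ± 0.216 TPM were the lowest, each apart from its neighbours in the order. HNRNPA2B1 alone gave 59.3 ± 1.25% of the readers' summed TPM in control, 58.9 ± 0.707% in KO1 and 58.5 ± 0.430% in KO2. In both clones the ranges of YTHDF2 and IGF2BP2 no longer overlapped, nor did those of YTHDF1 and the gene next below it, while YTHDF3 and IGF2BP1 were the overlapping pair. Between 368 (YTHDC2) and 24819 (HNRNPA2B1) reads lay behind a value, and the 10 genes held 0.357% of all recovered reads.

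**Figure D1:**
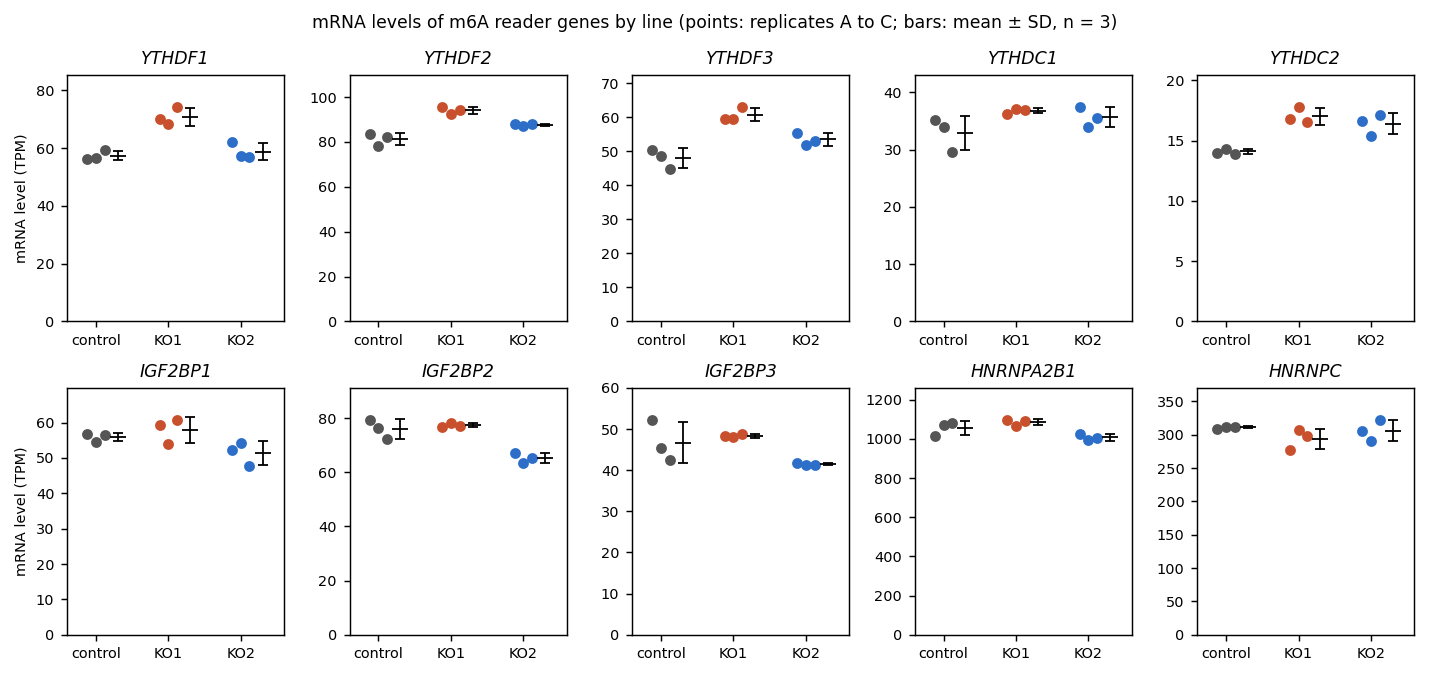
Levels of the 10 reader genes in TPM (y axis, from 0, a separate scale for each gene) in control, KO1 and KO2 (x axis), with a point per library (A to C) and bars for the mean ± SD (n = 3). The 3 KO1 points of YTHDF1, YTHDF2 and YTHDF3 lie above all control points, and the 3 KO2 points of IGF2BP2 lie below them.

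In KO1, the 3 YTHDF genes and YTHDC2 were higher than in control, and no reader was called lower. YTHDF3 had the largest difference, with mean levels 1.27 times those of control, followed by YTHDF1 at 1.23, YTHDC2 at 1.21 and YTHDF2 at 1.16. Called here means a two-sided limma adjusted p under 0.05 over all tested genes. Thus 4 of 10 readers were called, near the 34.3% of all tested genes. In the higher direction these 4 of 10 stand against 20.2% of all tested genes, and in the lower direction 0 of 10 stand against 14.1%. The median log2 fold change of the 10 readers was 0.11, and that of all tested genes was 0.04. Library ranges of control and KO1 did not overlap for 6 of 10 readers, near the 49.9% of all tested genes.

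In KO2, YTHDC2 was higher than in control and IGF2BP2 was lower. These 2 of 10 called readers are no larger a share than the 30.4% of all tested genes, and 1 of 10 in each direction compares with 15.6% higher and 14.8% lower. The readers' median log2 fold change was 0.00, against 0.01 over all tested genes. Ranges did not overlap for 6 of 10 readers, against 43.7% of all tested genes. YTHDC2 was the only reader called in both clones, 4 readers were called in 1 clone, and 5 in neither. The shares of all tested genes split in this way were not counted, so this split is not a result about the readers. KO1 and KO2 were set against the same control libraries, so their differences from control are not independent.

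Between the clones, 5 readers were lower in KO2 than in KO1 and none was higher: YTHDF1, YTHDF3, IGF2BP2, IGF2BP3 and HNRNPA2B1. The share of all tested genes called in this comparison was 28.7%, of which 16.9% of tested genes were lower in KO2 and 11.8% higher. The median log2 difference, KO2 minus KO1, was -0.14 for the readers and -0.04 for all tested genes. Ranges of the clones did not overlap for 6 of 10 readers, against 43% of tested genes. With libraries centred on their medians, 2 of 10 readers, YTHDF1 and IGF2BP2, were called in this comparison, beside 3964 of 14512 tested genes. That centring also moved the share of higher genes among all genes called between the clones from 41.1 to 55.5%.

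**Figure D2:**
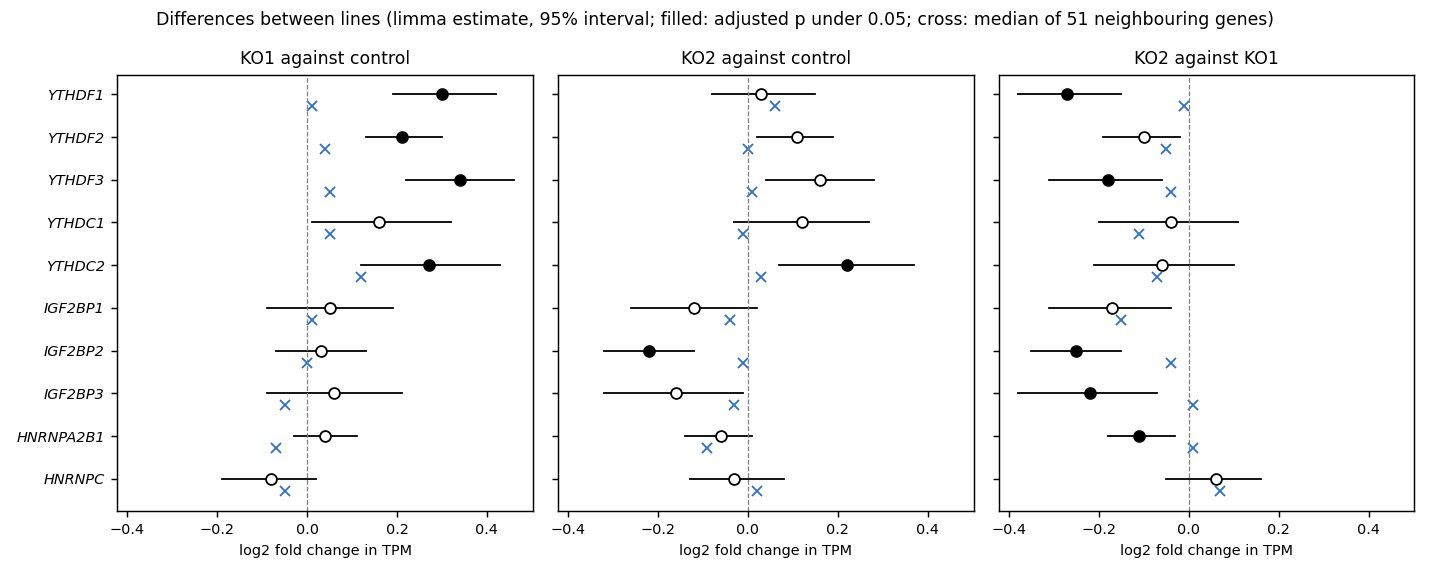
Log2 fold change in TPM (x axis) of each reader (y axis) for KO1 against control, KO2 against control and KO2 against KO1, with 95% confidence intervals from limma. Filled circles have an adjusted p under 0.05, open circles do not, and crosses mark the median of the 51 neighbouring tested genes on the chromosome. The YTHDF genes are filled on the right in KO1, and no gene is filled on the right of 0 in the panel of KO2 against KO1.

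The cytoplasmic YTHDF proteins are close paralogs with largely shared binding sites. YTHDF1 (ENSG00000149658, chromosome 20, 63195429 to 63216139 in hg38, minus strand) was at 56.3, 56.6 and 59.3 TPM in control, 69.9, 68.4 and 74.3 TPM in KO1 and 62.2, 57.2 and 57.0 TPM in KO2. All KO1 libraries were above all others, and KO2 overlapped control, with only its replicate A above the control range. The log2 fold change of YTHDF1 was 0.30 in KO1 (SE 0.0514, 95% confidence interval 0.19 to 0.42, limma adjusted p = 0.00158). In KO2 that of YTHDF1 was 0.03 (95% confidence interval -0.08 to 0.15, limma adjusted p = 0.661). Between them, the clones differed in YTHDF1 by -0.27, KO2 minus KO1 (SE 0.0514, limma adjusted p = 0.00372), so the difference between the clones was itself larger than the replicate spread. The 51 neighbouring genes had a median log2 fold change of 0.01 in KO1 and of 0.06 in KO2.

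YTHDF2, known for recruiting the CCR4-NOT deadenylase to methylated mRNA (ENSG00000198492, chromosome 1, 28736621 to 28769775, plus strand), was at 83.4, 78.2 and 82.3 TPM in control, 95.7, 92.5 and 94.1 TPM in KO1 and 87.8, 87.0 and 87.9 TPM in KO2. The 3 lines did not overlap, with KO2 between control and KO1. YTHDF2 had a log2 fold change of 0.21 in KO1 (SE 0.0380, 95% confidence interval 0.13 to 0.30, limma adjusted p = 0.00217). In KO2 the YTHDF2 value of 0.11 missed the threshold (95% confidence interval 0.02 to 0.19, limma adjusted p = 0.055), as did the difference of -0.10 between the clones (limma adjusted p = 0.0685). With median centring of the libraries, YTHDF2 was called in KO2 (0.12, limma adjusted p = 0.0345), and also with its neighbouring genes subtracted (0.14, limma adjusted p = 0.0268).

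YTHDF3 (ENSG00000185728, chromosome 8, 63168553 to 63212786, plus strand) had the same order of lines. Its levels were 50.4, 48.6 and 44.9 TPM in control, 59.6, 59.6 and 63.1 TPM in KO1 and 55.5, 51.9 and 53.0 TPM in KO2. The lowest KO2 library was above the highest control library and the highest KO2 library below the lowest of KO1. YTHDF3 differed from control by 0.34 on the log2 scale in KO1 (SE 0.0543, 95% confidence interval 0.22 to 0.46, limma adjusted p = 0.00104) and by 0.16 in KO2 (0.04 to 0.28, limma adjusted p = 0.052). The YTHDF3 difference between the clones was -0.18 (limma adjusted p = 0.0288). This call was lost without any single KO1 library (adjusted p = 0.0511, 0.0535 and 0.106 for A to C) and without KO2 replicate B (0.0779) or C (0.0672), and also with median centring (0.0833), no variance trend (0.0522) or the replicate block (0.0547). Without control replicate A, YTHDF3 was called in KO2 (0.19, limma adjusted p = 0.036), as it was with median centring (0.17, limma adjusted p = 0.0347).

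YTHDC1, the nuclear reader that carries m6A into splicing and export (ENSG00000083896, chromosome 4, 68310387 to 68350090, minus strand), was at 35.2, 34.0 and 29.6 TPM in control, 36.3, 37.1 and 36.9 TPM in KO1 and 37.5, 34.0 and 35.6 TPM in KO2. The KO1 libraries lay just above the control range, in which replicate C was low, and KO2 overlapped control. YTHDC1 passed no test, with a log2 fold change of 0.16 in KO1 (95% confidence interval 0.01 to 0.32, limma adjusted p = 0.0959) and 0.12 in KO2 (-0.03 to 0.27, limma adjusted p = 0.225). YTHDC2, a helicase best known from germ cells (ENSG00000047188, chromosome 5, 113513694 to 113595285, plus strand), was at 14, 14.3 and 13.9 TPM in control, 16.8, 17.8 and 16.5 TPM in KO1 and 16.6, 15.4 and 17.1 TPM in KO2. All 6 knockout libraries were above all control libraries, and the clones overlapped each other. The log2 fold change of YTHDC2 was 0.27 in KO1 (SE 0.0680, 95% confidence interval 0.12 to 0.43, limma adjusted p = 0.0115) and 0.22 in KO2 (0.07 to 0.37, limma adjusted p = 0.0339). The clones differed in YTHDC2 by -0.06 (95% confidence interval -0.21 to 0.10, limma adjusted p = 0.587).

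The 51 neighbouring genes of YTHDC2 had a median log2 fold change of 0.12 in KO1, with 11 called higher and 4 lower, near the 20.2% of all tested genes called higher. In KO2 their median was 0.03, with 3 higher and 3 lower. With the neighbours subtracted, YTHDC2 differed from control by 0.16 in KO1 (limma adjusted p = 0.101) and by 0.19 in KO2 (limma adjusted p = 0.0719), and neither was called. Subtracting a trend on GC content and length also ended the KO1 call (0.16, limma adjusted p = 0.0732). The KO2 call of YTHDC2 was also lost without any single control library (adjusted p = 0.0775, 0.0691 and 0.088 for A to C) and without KO2 replicate A (0.0922) or C (0.0947), with only the 2 lines compared (0.0639) and with the replicate block (0.0736).

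The IGF2BP genes encode RNA-binding proteins, of which IGF2BP1 and IGF2BP3 are mostly silent in adult tissues and expressed again in many tumours. IGF2BP2 (ENSG00000073792, chromosome 3, 185643130 to 185825042, minus strand) was at 79.3, 76.5 and 72.2 TPM in control, 76.8, 78.2 and 77.1 TPM in KO1 and 67.2, 63.4 and 65.1 TPM in KO2. KO1 lay inside the control range, and all KO2 libraries were below all others. In KO2 IGF2BP2 fell by 0.22 on the log2 scale (SE 0.0450, 95% confidence interval -0.32 to -0.12, limma adjusted p = 0.00451), and in KO1 its log2 fold change was 0.03 (-0.07 to 0.13, limma adjusted p = 0.682). The clones differed in IGF2BP2 by -0.25 (SE 0.0450, limma adjusted p = 0.0029). Neighbouring genes of IGF2BP2 had a median log2 fold change of -0.01 in KO2.

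IGF2BP1 (ENSG00000159217, chromosome 17, 48997385 to 49056145, plus strand), which shields mRNA from decay and from let-7, was at 56.7, 54.5 and 56.4 TPM in control, 59.4, 53.8 and 60.7 TPM in KO1 and 52.3, 54.3 and 47.8 TPM in KO2. The KO2 libraries lay below the control range by a small margin. IGF2BP1 was called in no comparison, with a log2 fold change of 0.05 in KO1 (95% confidence interval -0.09 to 0.19, limma adjusted p = 0.557) and -0.12 in KO2 (-0.26 to 0.02, limma adjusted p = 0.17). Its difference between the clones, -0.17 (limma adjusted p = 0.0612), stood beside a median of -0.15 for its 51 neighbours. Of these, 18 were called lower in KO2 than in KO1 and 6 higher, against 16.9 and 11.8% of all tested genes. With the neighbours subtracted, IGF2BP1 differed between the clones by -0.04 (limma adjusted p = 0.696). IGF2BP1 was called lower in KO2 than in KO1 by limma-voom on recovered reads (-0.14, adjusted p = 0.0382), without KO1 replicate B (-0.23, limma adjusted p = 0.0295) and without KO2 replicate B (-0.21, limma adjusted p = 0.041). Against control, limma-voom also called IGF2BP1 lower in KO2 (-0.14, adjusted p = 0.0341), as did the fit with the GC trend subtracted (-0.14, limma adjusted p = 0.0486).

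IGF2BP3 (ENSG00000136231, chromosome 7, 23310209 to 23470491, minus strand), an oncofetal member of the family, was at 52.2, 45.4 and 42.4 TPM in control, 48.3, 48.0 and 48.9 TPM in KO1 and 41.8, 41.3 and 41.3 TPM in KO2. The control libraries spread more widely than either clone, and the KO2 libraries lay just below the lowest of them. IGF2BP3 had a log2 fold change of 0.06 in KO1 (limma adjusted p = 0.549) and -0.16 in KO2 (95% confidence interval -0.32 to -0.01, limma adjusted p = 0.0976). It was lower in KO2 than in KO1 by 0.22 on the log2 scale (log2 difference -0.22, SE 0.0683, limma adjusted p = 0.0344). The call of IGF2BP3 between the clones was lost without any single KO1 library (adjusted p = 0.075, 0.0738 and 0.0942 for A to C) or KO2 library (0.0727, 0.071 and 0.0762), and with median centring (0.0706), no variance trend (0.0598) or the GC trend (0.0676). Without control replicate C, IGF2BP3 was called lower in KO2 than in control (-0.23, limma adjusted p = 0.0271), as it was by limma-voom on recovered reads (-0.19, adjusted p = 0.0128). Subtracting the GC trend also gave this call.

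HNRNPA2B1, proposed as a nuclear reader that acts on microRNA precursors (ENSG00000122566, chromosome 7, 26171151 to 26201529, minus strand), was at 1013, 1070 and 1081 TPM in control, 1096, 1068 and 1090 TPM in KO1 and 1027, 994 and 1004 TPM in KO2. Both clones overlapped control, and KO2 was below KO1 in every library. Its log2 fold change was 0.04 in KO1 (95% confidence interval -0.03 to 0.11, limma adjusted p = 0.377) and -0.06 in KO2 (-0.14 to 0.01, limma adjusted p = 0.17). With quantile normalization it was called lower in KO2 (-0.13, limma adjusted p = 0.0131), as it was by limma-voom (-0.08, adjusted p = 0.031). HNRNPA2B1 differed between the clones by -0.11 (SE 0.0330, limma adjusted p = 0.0378). The difference in HNRNPA2B1 was called in 8 of 21 other settings and was lost without control replicate B (adjusted p = 0.0566), without any KO1 library (0.0984, 0.0609 and 0.108 for A to C) and without any KO2 library (0.0553, 0.0892 and 0.0747). It was also lost with median centring, no variance trend, the replicate block, limma-voom, the neighbours subtracted and the GC trend. Over the 21 settings it ranged from -0.21 to -0.04 (highest limma adjusted p = 0.606).

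HNRNPC, which binds uridine tracts that m6A makes accessible (ENSG00000092199, chromosome 14, 21209136 to 21269494, minus strand), was at 309, 311 and 312 TPM in control, 277, 307 and 298 TPM in KO1 and 305, 290 and 322 TPM in KO2. The KO1 libraries were below the narrow control range, and KO2 overlapped both. HNRNPC was called in no comparison, with a log2 fold change of -0.08 in KO1 (95% confidence interval -0.19 to 0.02, limma adjusted p = 0.208) and -0.03 in KO2 (-0.13 to 0.08, limma adjusted p = 0.726). On recovered reads with limma-voom, HNRNPC was called lower in KO1 (-0.13, limma adjusted p = 0.0131), as it was with the GC trend subtracted (-0.16, limma adjusted p = 0.00694). Whether reads were counted by strand is not stated in the labels, so reads of a reader cannot be told apart from those of genes annotated on the opposite strand. This holds for YTHDF2 (ENSG00000289291), IGF2BP1 (ENSG00000250838 and ENSG00000251461 among others), IGF2BP2 (IGF2BP2-AS1), IGF2BP3 (MALSU1 among others) and HNRNPA2B1 (CBX3 and NFE2L3), and IGF2BP1 and IGF2BP2 also hold small genes on their own strand. HNRNPC and HNRNPA2B1 have near-identical copies elsewhere in the genome, so their values are uncertain.

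The summed YTHDF levels were 190, 183 and 186 TPM in control, 225, 220 and 231 TPM in KO1 and 205, 196 and 198 TPM in KO2. The 3 lines did not overlap, in the order control, KO2, KO1. The summed IGF2BP levels were 188, 176 and 171 TPM in control, 185, 180 and 187 TPM in KO1 and 161, 159 and 154 TPM in KO2, with KO2 below both other lines. The ratio of the YTHDF sum to the IGF2BP sum, which does not depend on how libraries are scaled, was 1.01, 1.04 and 1.09 in control. It was 1.22, 1.22 and 1.24 in KO1 and 1.27, 1.23 and 1.28 in KO2, above every control library in both clones. The sums and the ratio are descriptions without a test. In KO1 the YTHDF genes were called and no IGF2BP gene, and in KO2 IGF2BP2 was called and no YTHDF gene.

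**Figure D3:**
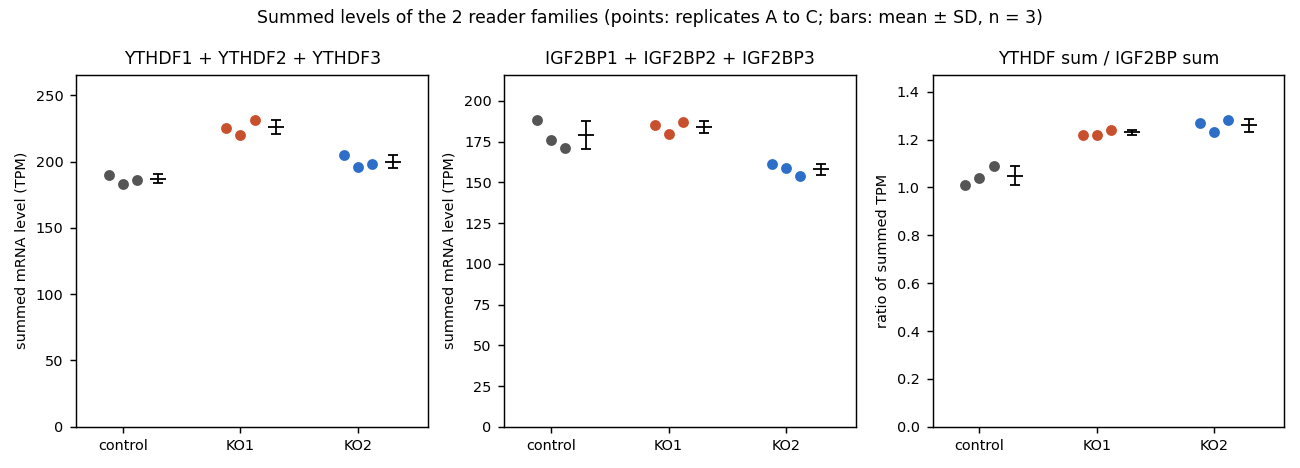
Summed TPM of YTHDF1, YTHDF2 and YTHDF3 (left), summed TPM of the IGF2BP genes (middle) and the ratio of these sums (right; y axes from 0) in control, KO1 and KO2, with a point per library and bars for the mean ± SD (n = 3). The ratio is 1.01 to 1.09 in control, 1.22 to 1.24 in KO1 and 1.23 to 1.28 in KO2.

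Within each family the mean shares of the paralogs (SD at most 1.57 percentage points, n = 3) moved little. YTHDF2 gave 43.5% of the YTHDF sum in control, 41.7% in KO1 and 43.8% in KO2, YTHDF1 30.8, 31.4 and 29.4%, and YTHDF3 25.7, 26.9 and 26.7%. IGF2BP2 gave 42.6, 42.1 and 41.3% of the IGF2BP sum in the same order, IGF2BP1 31.3, 31.5 and 32.5%, and IGF2BP3 26.1, 26.3 and 26.2%. Per length, YTHDF2 and IGF2BP2 were thus the most abundant mRNA of their family in every line. Across the 9 libraries, deposited log2 TPM correlated most closely between YTHDF2 and YTHDF3 (Pearson r = 0.90) and between IGF2BP2 and IGF2BP3 (r = 0.90), and YTHDF1 and YTHDF3 had r = 0.85. Pairs outside these 2 families were also close, with r = 0.85 for YTHDF3 and YTHDC1 and 0.82 for YTHDC2 with YTHDF2 and with YTHDF3. IGF2BP2 had r = 0.67 with HNRNPA2B1 and 0.65 with its paralog IGF2BP1. YTHDF2 and IGF2BP2 had r = 0.08. These values describe 9 libraries that share 3 lines and are given without a p.

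The tested genes outside the list whose log2 TPM had the highest r with a reader over the 9 libraries were taken for the 5 readers called in a clone. For YTHDF1 they were BAZ1B, a chromatin remodelling kinase (r = 0.989), and NMT1, an N-myristoyltransferase (r = 0.988). For YTHDF2 they were the hair keratin-associated gene KRTAP2-3 (r = 0.990) and the antiviral RNA-binding gene ZC3HAV1 (r = 0.984). A high r does not mean a change of like size. In KO1 the log2 fold change was 2.13 for KRTAP2-3 and 0.68 for ZC3HAV1, against 0.21 for YTHDF2. For BAZ1B it was 0.27 and for NMT1 0.17, beside 0.30 for YTHDF1. The genes closest to YTHDF3 were BCLAF1 (r = 0.991) and the nucleoporin gene NUP155 (r = 0.989), and the gene in the second place for YTHDC2 was PTOV1-AS2 (r = 0.977). The genes closest to IGF2BP2 were PSMD11, a proteasome subunit (r = 0.984), and the mitotic kinesin CENPE (r = 0.983). These r values were picked as the highest among all tested genes, in 9 libraries that share 3 lines. They are therefore high by selection and are given without a p.

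Genes that act with the readers are given by counts, to be read against the shares of all tested genes, 34.3% called in KO1 (20.2% higher, 14.1% lower) and 30.4% in KO2 (15.6% higher, 14.8% lower). Of 14 m6A writers and erasers, 4 were called higher and 3 lower in KO1, and 1 higher and 0 lower in KO2, so the share called was above that of all tested genes in KO1 and below it in KO2. The catalytic subunit METTL3 was at 43.0 ± 1.83 TPM in control and 37.0 ± 0.881 TPM in KO1 (log2 fold change -0.22, limma adjusted p = 0.00713), and its KO2 value was -0.05 (limma adjusted p = 0.437). RBM15B, which guides the writer complex to RNA, was the member higher in KO2 (0.41, limma adjusted p = 0.000919), and its KO1 value of 0.18 just missed the threshold (limma adjusted p = 0.0502). Its paralog RBM15 was higher in KO1 (0.38, limma adjusted p = 0.0047) and not called in KO2 (0.07, limma adjusted p = 0.545). The demethylase FTO was higher in KO1, by 0.30 (limma adjusted p = 0.0325). Of 8 other proposed m6A-binding proteins, 3 were higher and 2 lower in KO1, and 1 higher and 2 lower in KO2. The translation factor EIF3A was higher in both clones (0.11 and 0.36, limma adjusted p = 0.038 and 6.41e-05), and FXR2, a relative of FMR1, was lower in both (-0.23 and -0.29, limma adjusted p = 0.0152 and 0.00408).

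For the decay routes that YTHDF2 opens, 2 of 10 CCR4-NOT genes were higher in KO1 and none lower, and in KO2 1 was higher and 1 lower, no larger a share than the 34.3 and 30.4% of all tested genes. The scaffold CNOT1, to which YTHDF2 binds, was at 119 ± 4.56 TPM in control and 141 ± 1.5 TPM in KO1 (log2 fold change 0.25, limma adjusted p = 0.000851), and its KO2 value was 0.02 (limma adjusted p = 0.703). The deadenylase CNOT6 was higher in KO1 (0.46, limma adjusted p = 0.000549) and CNOT10 in KO2 (0.54, limma adjusted p = 0.000184). Of 11 genes of RNase P/MRP and RIDA, which YTHDF2 uses for cleavage, 2 were higher in KO1 and none lower, and 3 were higher and 1 lower in KO2. RPP14 was higher in both clones (0.34 and 0.57, limma adjusted p = 0.0038 and 0.000155).

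Of 5 nuclear partners of YTHDC1, 3 were higher in KO1 (SRSF10, NXF1 and SAFB) and 1 in KO2 (NXF1), and none was lower, against 20.2 and 15.6% of all tested genes higher. The mRNA export receptor NXF1 was at 38.3 ± 2.16 TPM in control, 51.7 ± 2.81 in KO1 and 47.0 ± 2.08 in KO2 (log2 fold changes 0.43 and 0.29, limma adjusted p = 0.00058 and 0.00526). The exonuclease XRN1, a partner of YTHDC2, had log2 fold changes of 0.02 and -0.02 (limma adjusted p = 0.911 and 0.916). Of 6 tested partners of the IGF2BP proteins, 4 were higher in KO1 and none lower, and 3 were higher and 1 lower in KO2. The poly(A)-binding protein gene PABPC1 was at 1325 ± 57.7 TPM in control, against 1686 ± 27.7 in KO1 and 1640 ± 35.3 in KO2. SYNCRIP, found in IGF2BP1 particles, was higher by 0.10 in KO1 and by 0.55 in KO2 (limma adjusted p = 0.0321 and 1.75e-06).

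Of 6 tested mRNAs known as IGF2BP cargo, 2 were higher and 1 lower in KO1, and 1 higher and 2 lower in KO2. CD44, a hyaluronan receptor, moved in opposite directions, with 206 ± 7.45 TPM in control, against 246 ± 1.03 in KO1 and 175 ± 4.02 in KO2 (log2 fold changes 0.26 and -0.23, limma adjusted p = 0.000463 and 0.000807; -0.49 between the clones, limma adjusted p = 1.39e-05). HMGA1, a chromatin architecture protein, was at 2906 ± 39.1 TPM in control, against 1715 ± 11.5 in KO1 and 2514 ± 69.0 in KO2 (-0.76 and -0.21, limma adjusted p = 1.13e-07 and 0.000571). In the let-7 axis, LIN28B, which blocks let-7 maturation, was higher in KO1 (0.30, limma adjusted p = 0.0371), and HMGA2 was called in neither clone. Both microprocessor genes, DROSHA and DGCR8, on whose substrates HNRNPA2B1 was proposed to act, were higher in KO1 (0.14 and 0.37, limma adjusted p = 0.021 and 0.0101) and not called in KO2 (0.10 and 0.09, limma adjusted p = 0.0855 and 0.484). Of 21 other hnRNP genes, 10 were higher and 1 lower in KO1, and 5 higher and 2 lower in KO2. In KO2 that share was near the 30.4% of all tested genes, and in KO1 the 10 higher genes stand against 20.2%. HNRNPA1, PCBP1 and HNRNPLL were called in both clones, at 0.26 and 0.23, 0.18 and 0.18, and -0.19 and -0.19, respectively. Close copies of HNRNPA1 make its value uncertain.

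Over the mean of both clones, YTHDF1, YTHDF2, YTHDF3 and YTHDC2 were higher than control, which is 4 of 10 readers against 34.4% of all tested genes, with 19.3% higher and 15% lower. The log2 fold changes were 0.17, 0.16, 0.25 and 0.25 (limma adjusted p = 0.0156, 0.00442, 0.00272 and 0.00952). YTHDF1 was called in KO2 under none of the 21 other settings. The mean call of YTHDF1 was lost without control replicate A (adjusted p = 0.0583) or B (0.0652) and with the neighbouring genes subtracted (0.0765). Over both clones, IGF2BP2 was called lower in 5 of 20 other settings and HNRNPC in 1 of 20. Ranges of all 6 knockout and the 3 control libraries did not overlap for 3 of 10 readers, YTHDF2, YTHDF3 and YTHDC2, against 24.4% of tested genes.

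**Figure D4:**
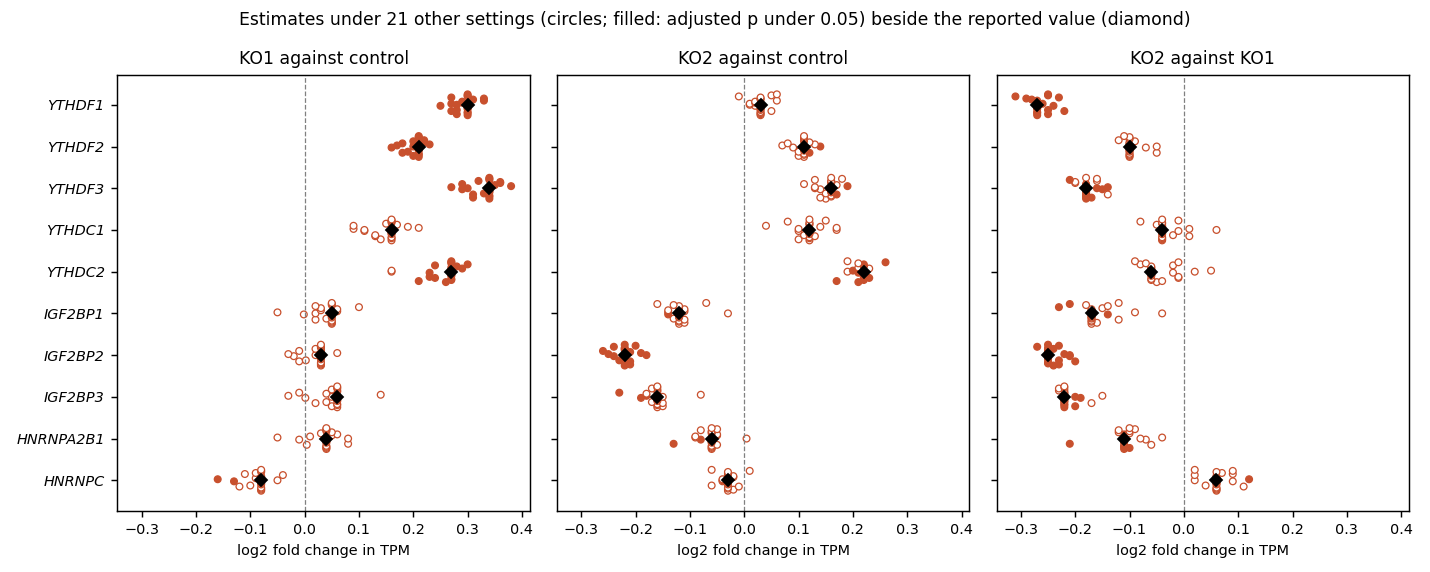
Log2 fold change in TPM (x axis) of each reader (y axis) under 21 other settings of the analysis (circles; filled where the adjusted p is under 0.05) beside the reported value (diamond), for KO1 against control, KO2 against control and KO2 against KO1. YTHDF1, YTHDF2 and YTHDF3 in KO1 and IGF2BP2 in KO2 are filled in all 21 settings.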

How the data were processed

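The authors deposited log2 TPM values for 9 input libraries, 3 per line; the 9 m6A-immunoprecipitated libraries were not analysed here. The submitters' processing notes name hg38 as the build and, as tools, edgeR 3.12.1 in R 3.3.3, featureCounts, HISAT2 2.0.4, deepTools 3.0.2 and SAMtools 1.7. What each tool did, the annotation, the gene filter and the strand setting are stated in no source used here. Values were scaled to TPM over the listed genes, with a small prior count before the logarithm. Whole reads were recovered for 100% of genes (tolerance 1e-06 reads). No replicate pair agreed within sampling noise (chi-square over degrees of freedom 1.22 to 3.71).

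GENCODE 44 matched 15138 of 15258 identifiers. The 14512 genes whose mean reached 1 TPM entered limma-trend (limma 3.58.1, R 4.3.3), fitted with the line as the only factor (6 residual degrees of freedom) and with two-sided Benjamini-Hochberg adjustment. The fit was tested on simulated data. MATR3 was left out, because 2 identifiers share the symbol.

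The 10 readers and the lists of partners were chosen with earlier results of these data known. Up to 3 genes per list were named, first those called in both clones by size of change, then those called in 1 clone, then the most abundant; METTL3 and CNOT1 were named after their values were seen, and not every gene named by the rule is printed. For likeness, the 2 genes with the highest r to each reader called in a clone were taken, of which the closest to YTHDC2 is not reported here. Alternatives were log2(TPM + 1), quantile normalization, median centring, testing all genes or those reaching 5 TPM, limma without the variance trend, a fit of 2 lines at a time, the replicate letter as a block, limma-voom on recovered reads, subtraction of the median of 51 neighbouring genes, and leaving out each library. Subtraction of a GC content and length trend (99.2% of genes) and log2(TPM + 5) were chosen after seeing the data.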

Additional observations from a re-analysis of the deposited data

Results flagged for a closer look

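For 5 readers the clones differed from each other by a test of the difference itself. The test was limma, KO2 minus KO1 on the log2 scale, with n = 3 libraries per clone. Of all tested genes, 28.7% were called in the same comparison, 16.9% lower in KO2 than in KO1 and 11.8% higher. Whether readers differed between the clones more often than other genes was not tested. YTHDF1 differed by -0.27 (limma adjusted p = 0.00372) and IGF2BP2 by -0.25 (limma adjusted p = 0.0029). YTHDF3 differed by -0.18 (limma adjusted p = 0.0288), IGF2BP3 by -0.22 (limma adjusted p = 0.0344) and HNRNPA2B1 by -0.11 (limma adjusted p = 0.0378). For each of these 5 readers all 3 KO1 libraries were above all 3 KO2 libraries. Ranges of the clones also did not overlap for 43% of all tested genes. YTHDF1 and IGF2BP2 were called between the clones in all 21 other settings, YTHDF3 in 13, IGF2BP3 in 12 and HNRNPA2B1 in 8. The 2 readers called in every setting differed from control in different clones, YTHDF1 in KO1 and IGF2BP2 in KO2.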

How the results depend on the processing

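In KO1, YTHDF1, YTHDF2 and YTHDF3 were called in all 21 other settings (log2 fold changes 0.25 to 0.33, 0.16 to 0.23 and 0.27 to 0.38), as was IGF2BP2 in KO2 (-0.26 to -0.18). YTHDC2 was called in 19 of 21 in KO1 and in 13 of 21 in KO2. The 2 of 10 readers called in KO2 became 4 with median centring, 5 with limma-voom, 3 with quantile normalization, 4 with the GC trend, 1 with only the 2 lines compared and 1 with the replicate block, and 1 to 2 when a library was left out. Of 14512 tested genes, 4414 were called in KO2 as reported. In the settings just named, in that order, 4448, 5059, 4398, 5114 (of 14396), 3957 and 3877 were called. The 5 called between the clones became 2 with median centring, 2 with no variance trend, 3 with the replicate block and 4 with the neighbours subtracted, and 2 to 5 when a library was left out. Between the clones 4165 of 14512 tested genes were called as reported, and 3964, 3759, 3516 and 3466 (of 14371) in these 4 settings. The cause was not tested.

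Uncalled values changed sign. With the neighbours subtracted, YTHDC1 and YTHDC2 between the clones became 0.06 and 0.02, and HNRNPA2B1 0.0042 in KO2 and 0.04 over both clones. With median centring, YTHDC1 between the clones became 0.01 and IGF2BP2 in KO1 -0.01. With limma-voom, IGF2BP1, IGF2BP2 and HNRNPA2B1 in KO1 became -0.0015, -0.02 and -0.01. With the GC trend, YTHDC1 and YTHDC2 between the clones became 0.01 and 0.05, and IGF2BP1, IGF2BP2, IGF2BP3 and HNRNPA2B1 in KO1 -0.05, -0.03, -0.03 and -0.05. Leaving out a library gave -0.01 to 0.06 for YTHDF1 in KO2, -0.01 to 0.06 for IGF2BP2 and -0.01 to 0.14 for IGF2BP3 in KO1, -0.06 to 0.01 for HNRNPC in KO2, and over both clones -0.12 to 0.03 for IGF2BP3 and -0.04 to 0.01 for HNRNPA2B1.

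On raw reads, where a longer mRNA counts more, the order within families changed. YTHDF1, YTHDF2 and YTHDF3 had 23.7, 39.3 and 37.0% in control, 24.1, 37.4 and 38.5% in KO1 and 22.5, 39.3 and 38.2% in KO2, so that YTHDF3 had the highest mean in KO1. In KO1 replicate A YTHDF2 was still slightly ahead, at 38.2% against 38% for YTHDF3. IGF2BP1, IGF2BP2 and IGF2BP3 had 40.3, 28.4 and 31.3%, 40.4, 28.1 and 31.5%, and 41.4, 27.3 and 31.2%, with IGF2BP2 lowest in every line.

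Replicate letters did not pair the samples: deviations from the line means correlated with r from -0.074 to 0.037 for the same letter (9 pairs) and -0.109 to 0.123 for different letters (18 pairs). Among all called genes, the share of higher ones was 58.9% in KO1 as deposited and 47.1% with limma-voom, and 56.3 and 45.9% over both clones. The edgeR alternative was not run, because the deposited unit is not a count, and the fit of only the 2 lines gives no value for the mean of both clones. YTHDC2 had the fewest reads, 368 to 558 per library. Its coefficient of variation was 1.54% in control, 4.03% in KO1 and 5.13% in KO2. Some readers with more reads varied more, such as IGF2BP3 (10.8%) and YTHDC1 (8.86%) in control. The part of depth in this spread was not tested.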
